A study of Homo sapiens with 6 samples.

Results

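B3GNT3, 4 mucin genes (MUC1, MUC5AC, MUC5B and MUC16) and 5 other genes of mucin-type O-glycan synthesis (C1GALT1, C1GALT1C1, GCNT1, GCNT3 and ST3GAL1) were followed through RNA-seq libraries of A549 cells. These 10 genes were picked by symbol from the 26485 gene symbols of the count data, and 9 of them had enough counts to be tested. B3GNT3 was selected on its fold change in the comparison described here, and the others as its pathway with those results known, so the members' fold changes are given as a description with standard errors and without p-values. A549 is a human lung adenocarcinoma cell line. Both groups stably carried dCas9-KRAB (a nuclease-dead Cas9 fused to the KRAB repressor, delivered by lentivirus and selected with puromycin at 10 ug/ml) and rat Nkx2-1 driven by the PGK promoter from a vector that also encodes EGFP, by which the cells were sorted. The sgRNA #2 group was transiently transfected with a synthetic guide to the first intron of SFTPB, and the sgRNA control group with a non-targeted guide. Each group had 3 libraries of total RNA, described by the study as biologically independent, and 1 guide stood for the target, so a difference between the groups is a difference between these 2 guides.

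Mucins are large secreted or membrane-bound glycoproteins that form the mucus layer and the cell-surface glycocalyx of the airway. Their O-glycans start with N-acetylgalactosamine added by the GALNT enzymes. C1GALT1 then adds galactose to make core 1 and needs its chaperone C1GALT1C1 to do so, GCNT1 and GCNT3 add the branch that makes core 2, B3GNT3 adds N-acetylglucosamine to core 1 and so extends it, and ST3GAL1 caps core 1 with sialic acid. MUC5AC and MUC5B are the main gel-forming mucins of the airway, and MUC1 and MUC16 are membrane mucins.

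The guide and the best partial matches to it near the members' start sites are shown because pairing of guide and DNA is what directs dCas9-KRAB. The target of sgRNA #2 had 1 exact site in GRCh38, chr2:85668529-85668551 on the minus strand, inside SFTPB (chr2:85657314-85668741, minus strand). The longest run of guide bases matched next to an NGG motif (the PAM that Cas9 requires) was sought on both strands within 1000 bp of the annotated start sites. In the lines below the 3 last bases are the PAM and capitals mark the matched bases next to it (for the guide itself, the 10 bases next to the PAM).
sgRNA #2 target: gggatgggagGGGAACACCCagg
B3GNT3: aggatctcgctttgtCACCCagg
MUC5AC: cactcagtaccgcacCACCCagg
MUC5B: ctgcctctctggggACACCCagg
GCNT3: tttcatttttttcAACACCCtgg
CREB3L1: gggttaacccGGGAACACCCggg
B3GNT3 matched 5 bases (chr19:17794387-17794409, minus strand), MUC5AC 5 (chr11:1158104-1158126, minus strand), MUC5B 6 (chr11:1258986-1259008, plus strand) and GCNT3 7 (chr15:59594316-59594338, minus strand). The MUC5B site is at -526 bp from an annotated start site that lies far inside the gene (chr11:1223066-1262172). Runs of at least 5 bases were found near 76.4% of 13082 tested genes scanned, and near 8 of the 10 members. Runs of at least 6 were found near 24% of the tested genes and of at least 7 near 5.51%. Runs of at least 8 were found near 1.51% of the tested genes and near 0 of the 10 members. CREB3L1, a pathway gene described below, matched 10 bases at chr11:46295728-46295750 (minus strand), 613 bp from a start site, a length reached by 28 of the 13082 genes (0.214%). The 4 other pathway genes that passed the adjusted p matched 4 bases (GALNT6 and ST6GALNAC3), 5 (GALNT9) and 6 (FCGBP). Whether any of these partial matches was occupied was not tested.

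The targeted gene checks the labels. SFTPB, which encodes surfactant protein B, was counted at 427, 408 and 415 CPM (counts scaled to a common library size with edgeR's TMM factors) in the control libraries and at 5.69, 6.31 and 8.16 CPM with sgRNA #2. The groups lay far apart, with a log2 fold change of -5.96 ± 0.101 (SE, adjusted p = 5.56e-17, edgeR quasi-likelihood test with Benjamini-Hochberg adjustment). Human NKX2-1 was counted at 9.40, 12.0 and 9.33 CPM in control and at 9.10, 6.91 and 9.33 CPM with sgRNA #2, which is a log2 difference of -0.28 (adjusted p = 0.627, edgeR). The study states that A549 cells lack endogenous NKX2-1 expression. Whether reads of the rat transgene were counted under the human symbol was not tested, so these values are not a level of the human gene alone. The libraries held 6341459 to 7584611 counts on genes in control and 6047554 to 7058274 with sgRNA #2, so that 3 counts, the limit that a count of 0 allows, correspond to 0.394 to 0.5 CPM, for counting error only. The epithelial keratin KRT8 stood at 1480 to 2060 CPM in all 6 libraries, while the leukocyte gene PTPRC, the fibroblast gene DCN and the endothelial gene CDH5 were at 0 counts in all 6. CDKN2A, a gene deleted in A549, was also at 0 in all 6, whereas KRT19, another epithelial keratin, was nearly absent at 0 to 4 counts. CD68, which macrophages and many epithelial lines express, stood at 62.1 to 68.3 CPM and the collagen gene COL1A1 at 6 to 8.92 CPM, with overlapping groups.

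B3GNT3 was roughly halved with sgRNA #2. The gene (chr19:17794828-17813576 in GRCh38, plus strand, 3 exons) overlaps no other annotated gene. It was counted at 28.7, 36.1 and 36.7 CPM (180, 255 and 279 counts) in the control libraries and at 14.2, 14.7 and 18.0 CPM (100, 98 and 108 counts) with sgRNA #2. The groups did not overlap, and the highest sgRNA #2 library stood well below the lowest control library. The mean fell from 33.8 ± 4.48 to 15.6 ± 2.05 CPM (SD, n = 3 each), to 46.2% of control, a log2 fold change of -1.12 ± 0.129 (SE). Within same-numbered libraries the ratio of sgRNA #2 to control was 0.496, 0.407 and 0.49, so B3GNT3 was lower in 3 of 3 pairs. In bulk RNA, fewer cells expressing a gene and less of its RNA per cell cannot be told apart.

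**Figure D1:**
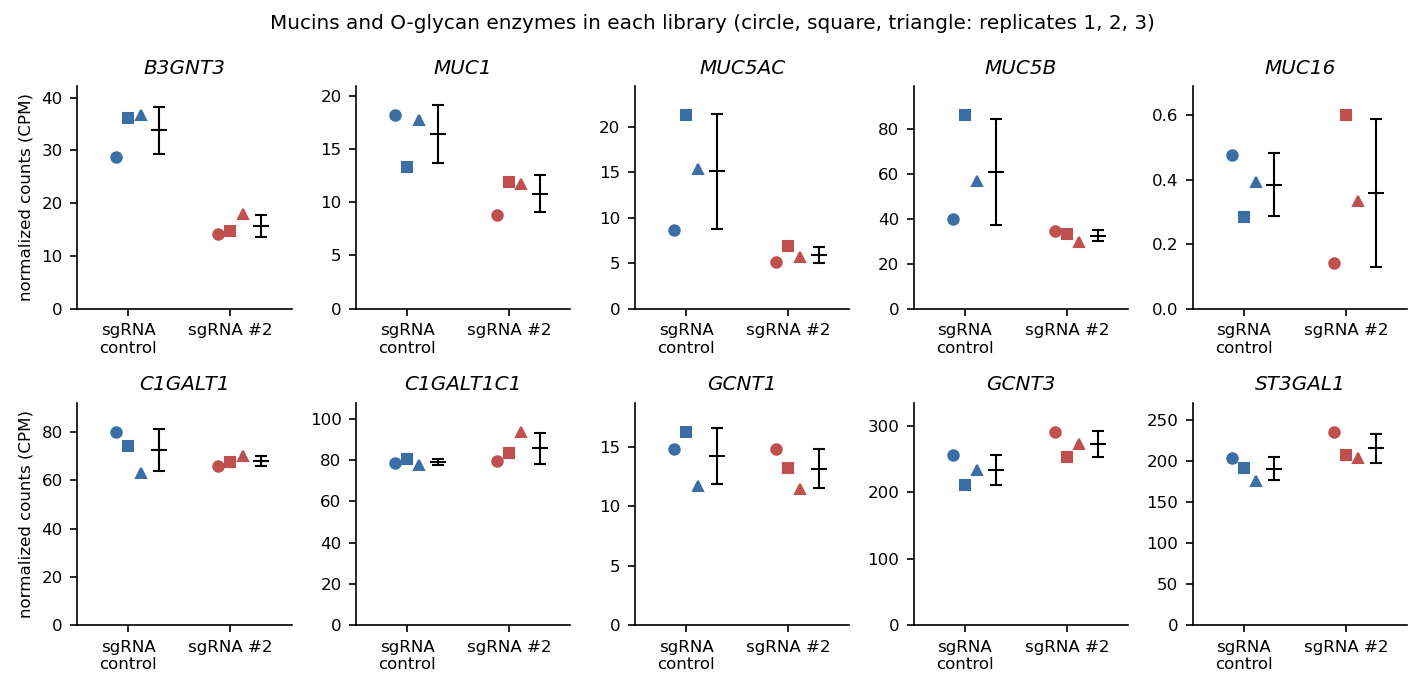
Normalized counts (CPM, linear axis from 0) of the 10 genes in each library, with circles, squares and triangles for replicates 1, 2 and 3, sgRNA control in blue, sgRNA #2 in red, and black bars for the mean ± SD (n = 3). The sgRNA #2 libraries lie below every control library for B3GNT3, MUC1, MUC5AC and MUC5B, and the groups overlap for the other 6 genes.

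The 250 bases before the RefSeq start site of B3GNT3 (chr19:17794888-17795137, plus strand, GRCh38.p14) are shown because the guide was designed within or near a binding motif of NKX2-1 at SFTPB, and capitals mark the same motif, CAAG or CTTG, here. This stretch lies inside the longest annotated span of the gene, since 1 GENCODE transcript starts upstream of it.
B3GNT3 promoter: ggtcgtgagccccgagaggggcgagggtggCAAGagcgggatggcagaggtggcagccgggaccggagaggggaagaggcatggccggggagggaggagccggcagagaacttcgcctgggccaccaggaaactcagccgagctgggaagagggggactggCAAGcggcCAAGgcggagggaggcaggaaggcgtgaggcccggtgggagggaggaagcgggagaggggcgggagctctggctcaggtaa
It held 3 copies of the motif, counted as CAAG on either strand with CTTG as its reverse complement, and its GC content was 70.4%. At least 3 copies were found in 27.9% of 27305 RefSeq promoter windows of this length and at least 1 in 81%, with a median of 2. Of the 10 members 7 had a window in the RefSeq table, without MUC5AC, MUC5B and ST3GAL1. The other windows held 7 copies (GCNT1, a number reached by 0.469% of windows), 4 (C1GALT1), 1 each (MUC1, MUC16 and C1GALT1C1) and 0 (GCNT3). The windows of GCNT1 (chr9:76393619-76393868) and MUC16 (chr19:9065752-9066001) do not adjoin the GENCODE spans given for these genes below. Both lie well upstream of them. Since the windows of MUC5AC and MUC5B are missing, copies and levels were not compared, and a relation between them was not tested. Such a match is a description of the letters and does not show a bound site.

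The gel-forming mucins were lower with sgRNA #2 as well, but their control libraries varied widely. MUC5AC (chr11:1157953-1201138, plus strand, 49 exons) was counted at 8.60, 21.3 and 15.4 CPM (54, 150 and 117 counts) in control and at 5.12, 6.91 and 5.66 CPM (36, 46 and 34 counts) with sgRNA #2. The groups did not overlap, although control replicate 1 came close to sgRNA #2 replicate 2. The mean fell from 15.1 ± 6.33 to 5.90 ± 0.917 CPM, to 39.1% of control, a log2 fold change of -1.37 ± 0.259 (SE). The highest control library held 2.47 times the lowest, against 1.35 times among the sgRNA #2 libraries. Without control replicate 2, the highest of the control libraries, the log2 fold change was -1.04, and MUC5AC kept both cut-offs with any 1 of the 6 libraries left out.

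MUC5B lies next to MUC5AC on the same strand (chr11:1223066-1262172). It was counted at 39.8, 86.3 and 56.7 CPM (250, 609 and 431 counts) in control and at 34.6, 33.2 and 29.7 CPM (243, 221 and 178 counts) with sgRNA #2. The groups did not overlap, but control replicate 1 lay only slightly above the sgRNA #2 libraries, which were nearly equal to each other. The mean was 60.9 ± 23.5 against 32.5 ± 2.54 CPM, or 53.3% of control, a log2 fold change of -0.91 ± 0.188 (SE). The value was -0.58 without control replicate 2 and -1.13 without control replicate 1, so the size of the MUC5B difference rested on which control libraries were counted. MUC5AC and MUC5B are paralogs with repeated coding sequence, reads that fit both could be placed on either or dropped, and MUC5B shares exonic sequence with the antisense gene MUC5B-AS1, from which it cannot be told apart without the strand setting of the counting.

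The membrane mucin MUC1 (chr1:155185824-155192916, minus strand) was counted at 18.2, 13.3 and 17.7 CPM (114, 94 and 135 counts) in control and at 8.82, 11.9 and 11.7 CPM (62, 79 and 70 counts) with sgRNA #2. The groups did not overlap, and control replicate 2 was the nearest to the sgRNA #2 libraries. The mean was 16.4 ± 2.68 against 10.8 ± 1.70 CPM, 65.7% of control, with a log2 fold change of -0.61 ± 0.164 (SE) that met neither cut-off. Of the 3 control libraries, replicate 2 was the highest for MUC5AC and MUC5B and the lowest for MUC1. MUC1 shares exonic sequence with an unnamed gene on its own strand. MUC16 (chr19:8848844-9010390, minus strand) was counted at 3, 2 and 3 counts in control and at 1, 4 and 2 counts with sgRNA #2, and was too low to be tested, so that a difference was not detectable at this depth.

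The 5 other genes of core synthesis and capping met neither cut-off, and their groups overlapped. C1GALT1 (chr7:7156934-7248616) was counted at 80.3, 74.3 and 63.0 CPM in control and at 66.0, 67.7 and 70.3 CPM with sgRNA #2, with a log2 fold change of -0.09 ± 0.0874 (SE). Its chaperone C1GALT1C1 (chrX:120625674-120630054) was counted at 78.7, 80.6 and 77.6 CPM against 79.5, 83.7 and 93.9 CPM, with 0.12 ± 0.0761. In both genes the difference was no wider than the spread among replicates of a group.

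GCNT1 (chr9:76419850-76651203), the widely expressed core 2 enzyme, was counted at 14.8, 16.3 and 11.7 CPM in control and at 14.8, 13.2 and 11.5 CPM with sgRNA #2, a log2 fold change of -0.10 ± 0.156 (SE). GCNT3 (chr15:59594875-59640239), the core 2 enzyme of mucin-secreting tissues, was counted at 256, 211 and 234 CPM against 292, 253 and 273 CPM, a log2 fold change of 0.22 ± 0.0768. ST3GAL1 was counted at 204, 191 and 176 CPM against 236, 207 and 204 CPM, a log2 fold change of 0.18 ± 0.0749. The groups overlapped in all 3 genes, but GCNT3 and ST3GAL1 were each higher with sgRNA #2 in 3 of 3 same-numbered pairs, by ratios of 1.14, 1.20 and 1.17 for GCNT3 and 1.16, 1.08 and 1.16 for ST3GAL1. GCNT1 shares exonic sequence with PRUNE2 on the opposite strand (log2 fold change 0.04), and GCNT3 lies opposite part of GTF2A2 (0.06).

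A gene was called when its adjusted p was under 0.05 and it differed at least 2-fold, which is 1 on the log2 scale, in either direction (the cut-offs of the study). By both cut-offs 2 of the 9 tested members were lower (B3GNT3 and MUC5AC), beside 0.689% of all 13356 tested genes (92 genes), and 0 were higher, beside 0.0299% (4 genes). By the adjusted p alone 3 members were lower, beside 2.22% of all tested genes, and 0 were higher, beside 0.464%. By DESeq2 the adjusted p alone left 2 lower (B3GNT3 and MUC5AC), since MUC5B missed it. In 4 members every sgRNA #2 library lay below every control library, beside 8.83% of all tested genes, and in 0 members above, beside 6.77%. Nothing was read from these counts, because the members were chosen with this comparison in view. With the replicate number as a block, 4 members were lower by the adjusted p alone (MUC1 was added), beside 6.06%, and 2 were higher (GCNT3 and ST3GAL1), beside 3.97%, while the members past both cut-offs stayed at 2. The p-values of the block fit, here and below, rest on the trend of the dispersions and not on the spread of the single gene. The member just inside the fold cut-off was B3GNT3 at -1.12 and the one just outside was MUC5B at -0.91. The median log2 fold change was -0.91 over the 3 tested mucins and 0.01 over the 6 enzymes, B3GNT3 included, against 0 over all tested genes.

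Levels of different genes were compared per length, as TPM (counts divided by length and scaled to the same total in every library) over the union of each gene's annotated exons. The mean levels in the control libraries ran from C1GALT1C1 (199 ± 3.14 TPM, SD, n = 3) through GCNT3 (164 ± 16.2), ST3GAL1 (98.5 ± 7.19), B3GNT3 (55.6 ± 7.40), C1GALT1 (42.5 ± 5.04), MUC1 (31.1 ± 5.17), MUC5B (14.9 ± 5.72), GCNT1 (7.02 ± 1.13) and MUC5AC (3.93 ± 1.64) down to MUC16 (0.0397 ± 0.0101). No neighbours in that order overlapped in range, although B3GNT3 and C1GALT1 nearly met. For comparison, the median tested gene stood at 30.7 TPM and the quartiles at 11 and 74.9 TPM, and B3GNT3 stood at percentile 68 of the tested genes and MUC5AC at percentile 11.

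With sgRNA #2, B3GNT3 was at 26.0 ± 3.22 TPM, between 23.7 and 29.7, and changed places with C1GALT1, which ranged from 39.2 to 41.3 TPM. In these libraries the ranges of C1GALT1C1 and GCNT3 overlapped, as did those of MUC5B and GCNT1. Summed over the 4 mucins, the level was 46.5, 51.8 and 51.8 TPM in control and 26.9, 33 and 31 TPM with sgRNA #2. MUC1 was the most abundant of the 4, and the sum covers these members only. For the 16 other mucins and mucin-like genes described below, the sum was 285, 284 and 301 against 286, 282 and 310 TPM. These ranges overlapped, and CD164 was the most abundant gene of that sum. Summed over the 6 enzymes the level was 586, 559 and 556 against 605, 576 and 612 TPM, which overlapped.

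**Figure D2:**
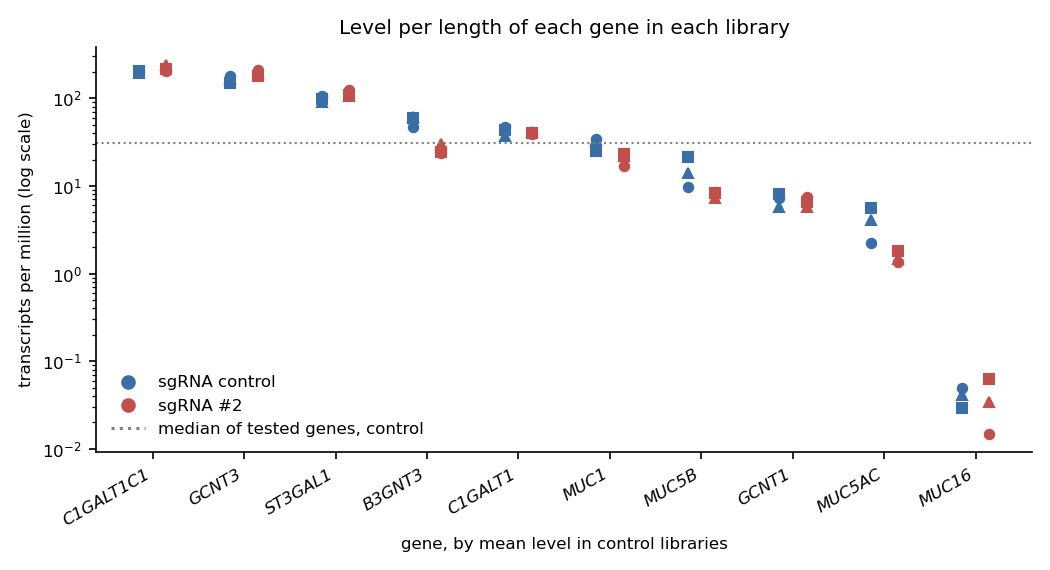
Level per length (TPM, log axis) of each gene in each library, ordered by the mean of the control libraries, with circles, squares and triangles for replicates 1, 2 and 3. The dotted line is the control median of all tested genes (30.7 TPM), which B3GNT3 crosses from above in control to below with sgRNA #2.

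Of 99 further genes of O-glycan synthesis and mucus secretion, listed by their role and with earlier results of these data known, 58 had enough counts to be tested. Among them 4 were called, and all 4 were lower with sgRNA #2 (GALNT6, GALNT9, CREB3L1 and FCGBP), beside 0.689% of all tested genes. A further gene, ST6GALNAC3, passed the adjusted p alone, and 12 of the 58 had an unadjusted p under 0.05, beside 11.1% of all tested genes (1489 genes). The median log2 fold change of the 58 genes was -0.04. With the replicate block, 10 were lower, beside 6.06% of all tested genes, and 1 was higher (AGR2), beside 3.97%, by the adjusted p alone.

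Among enzymes that start the glycan, 14 of 20 were tested and 2 were called. GALNT6 was counted at 3.82, 4.39 and 6.44 CPM (24, 31 and 49 counts) in control and at 0 counts in all 3 sgRNA #2 libraries, at least 9.78-fold lower against a limit of 3 counts per library. It passed the count filter through the control libraries alone, so that it was tested only because the groups differed, and its call is a description. GALNT9 stood at -1.33 ± 0.341 on the log2 scale (SE, adjusted p = 0.0441, edgeR) and missed the threshold in 5 of the 6 fits with a library left out. The most abundant of these genes per length, GALNT10 (log2 fold change -0.03, adjusted p = 0.931) and GALNT1 (0.01, adjusted p = 0.983), were not called.

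Of 9 other N-acetylglucosamine-extending and related enzymes 7 were tested and 0 were called. B3GNT2, the main polylactosamine synthase, was counted at 47.9, 41.4 and 44 CPM in control and at 50.9, 40.0 and 50.6 CPM with sgRNA #2 (log2 fold change 0.09, adjusted p = 0.852, edgeR). B3GNT5, which starts lacto-series glycolipids, had -0.33 ± 0.0916 (SE, adjusted p = 0.0684, and 1.81e-05 with the replicate block). B3GNT6, which extends the unbranched N-acetylgalactosamine into core 3, was counted at 6.69, 8.36 and 6.18 CPM against 8.68, 8.26 and 6.50 CPM (0.15, adjusted p = 0.867), and B4GAT1, which acts on dystroglycan, had -0.04 (adjusted p = 0.924). The B3GNT2 and B3GNT6 groups overlapped.

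The galactosyltransferases that continue the chain were not called either (0 of 6 tested, of 9 listed). B4GALT1 was the most abundant of them, with 0.01 on the log2 scale (adjusted p = 0.966, edgeR), and B4GALT5 had -0.16 (adjusted p = 0.269, and 0.00516 with the replicate block). Of 3 other branching enzymes 2 were tested, GCNT2 at -0.05 (adjusted p = 0.9) and GCNT4 at 0.48 ± 0.275 (adjusted p = 0.58). For the 8 genes that make or import sugar nucleotides, all 8 were tested and 0 were called, with log2 fold changes between -0.10 and 0.14. They include the sialic acid activating enzyme CMAS (-0.03, adjusted p = 0.941) and the UDP-galactose transporter SLC35A2 (0.02, adjusted p = 0.958).

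Of the other sialyltransferases 7 of 9 were tested and 0 were called. ST6GALNAC3, which adds sialic acid to the N-acetylgalactosamine of sialylated core 1, was counted at 7.33, 11.5 and 10.9 CPM in control and at 5.12, 5.56 and 5.33 CPM with sgRNA #2. The groups did not overlap, and the log2 fold change was -0.90 ± 0.203 (SE, adjusted p = 0.0183, edgeR), short of the fold cut-off. The adjusted p was missed by DESeq2 (0.0536) and in 4 of the 6 edgeR fits with a library left out (0.00375 to 0.111 over the 6), and both cut-offs were met without control replicate 1 (-1.07). The most abundant of these genes, ST6GAL1 and ST6GALNAC4, had -0.04 (adjusted p = 0.933) and -0.14 (adjusted p = 0.767). Of 12 fucosyl- and sulfotransferases 5 were tested and 0 were called, FUT11 had -0.09 (adjusted p = 0.812), CHST1 had -0.18 (adjusted p = 0.751), and FUT3, FUT5 and FUT9 were at 0 counts in all 6 libraries.

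Among the 16 other mucins and mucin-like genes only 3 had enough counts to be tested, and 0 were called. MUC13, a membrane mucin, was counted at 35.2, 53.4 and 47.9 CPM in control and at 38.5, 39.4 and 39.5 CPM with sgRNA #2 (log2 fold change -0.22, adjusted p = 0.534, edgeR). The groups overlapped, and control replicate 2 was again the highest. CD164, a sialomucin of the cell surface, had 0.05 (adjusted p = 0.885), and MUC2, the intestinal gel-forming mucin next to MUC5AC, had too few counts to be tested.

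**Figure D3:**
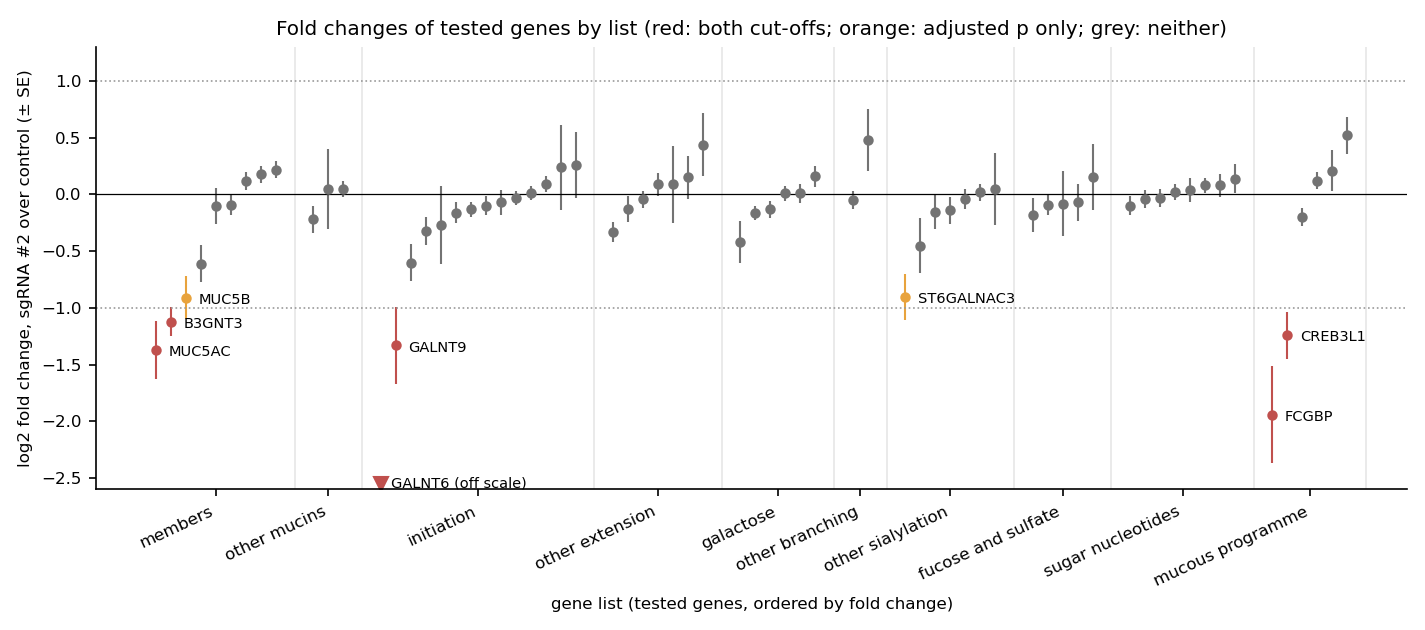
The log2 fold change of sgRNA #2 over control (± SE) for each tested gene of the members and of 9 gene lists, ordered within each list, in red where both cut-offs were met, in orange where only the adjusted p was, and in grey otherwise. Dotted lines mark the fold cut-offs, GALNT6 lies off the scale because it was at 0 counts in every sgRNA #2 library, and all coloured points lie below 0.

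Of 13 genes of the mucous secretory programme 6 were tested and 2 were called. FCGBP, which encodes a protein that is secreted with gel-forming mucins, was counted at 8.76, 36.3 and 14.3 CPM (55, 256 and 109 counts) in control and at 2.99, 8.71 and 3.83 CPM (21, 58 and 23 counts) with sgRNA #2. The sgRNA #2 libraries lay below every control library, though replicate 2 of sgRNA #2 nearly reached control replicate 1, and replicate 2 was the highest within both groups. The log2 fold change was -1.94 ± 0.430 (SE, adjusted p = 0.0167, edgeR), and it was -1.17 without control replicate 2 (adjusted p = 0.0839) and -1.64 without sgRNA #2 replicate 1 (adjusted p = 0.117).

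CREB3L1, a membrane-bound transcription factor of secretory cells, was counted at 8.12, 8.08 and 7.36 CPM in control and at 2.99, 3.30 and 3.66 CPM with sgRNA #2. The replicates of each group were close together and the groups lay far apart, with a log2 fold change of -1.24 ± 0.207 (SE, adjusted p = 0.00162, edgeR), and CREB3L1 stayed called with any 1 library left out. It is the gene with the 10-base partial match to the guide shown above, and the part of that match in the result was not tested.

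AGR2, a protein disulfide isomerase needed for mucin folding, was counted at 28.7, 40.1 and 39.7 CPM in control and at 39.0, 68.0 and 49.5 CPM with sgRNA #2. The groups overlapped, but AGR2 was higher with sgRNA #2 in 3 of 3 same-numbered pairs, by ratios of 1.36, 1.70 and 1.25. The log2 fold change of 0.52 ± 0.161 (SE) had an adjusted p of 0.123, and of 9.13e-10 with the replicate block (both edgeR). The block value does not take in the spread of AGR2 itself, since it rests on the trend of the dispersions alone. It was 0.28 without sgRNA #2 replicate 2 (adjusted p = 0.523) and 0.70 without sgRNA #2 replicate 1 (adjusted p = 0.0172). SPDEF, the transcription factor that drives goblet cell differentiation, had 0.21 (adjusted p = 0.758, edgeR). The transcription factors FOXA1 and FOXA2 had -0.20 (adjusted p = 0.311, and 0.0408 with the replicate block) and 0.12 (adjusted p = 0.623). TFF1, TFF3, CLCA1 and ERN2, further products of goblet cells, were at 0 counts in all 6 libraries.

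**Figure D4:**
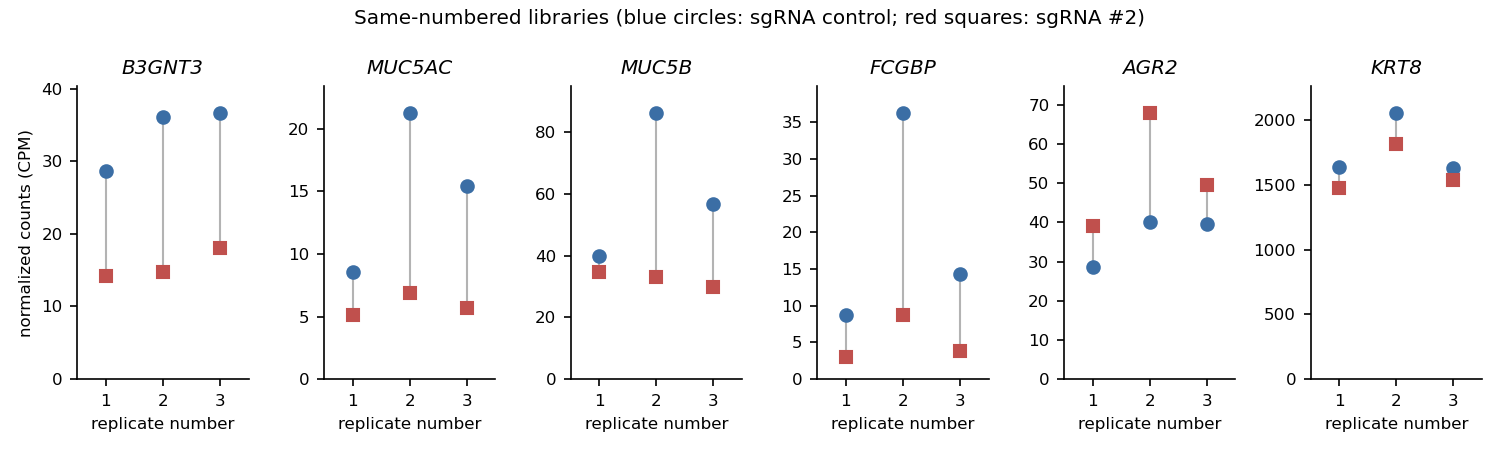
Normalized counts (CPM, linear axis from 0) of 6 genes by replicate number, with blue circles for sgRNA control, red squares for sgRNA #2 and grey lines joining libraries with the same number. In all 3 pairs B3GNT3, MUC5AC, MUC5B, FCGBP and KRT8 are lower and AGR2 is higher with sgRNA #2, and replicate 2 is the highest control library for MUC5AC, MUC5B, FCGBP, AGR2 and KRT8.

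Replicate 2 was the highest for some other genes too, but not for all. KRT8 and KRT18 were highest in replicate 2 within both groups. The highest control library held 1.27 times the lowest for KRT8 and 1.25 times for KRT18, against 2.17 times for MUC5B and 4.14 times for FCGBP. In contrast, the highest control library was replicate 1 for MUC1, C1GALT1, GCNT3, ST3GAL1 and CREB3L1, and replicate 3 for B3GNT3 and GALNT9. How often replicate 2 was the highest over all genes was not counted. The part of control replicate 2 in the results on the gel-forming mucins and FCGBP is measured by the values without it given above. The origin of its higher values was not tested.

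Within 100 kb of B3GNT3, the tested neighbours MAP1S (log2 fold change -0.04), FCHO1 (-0.06) and JAK3 (-0.19) did not pass the adjusted p (0.942, 0.948 and 0.894, edgeR). Around MUC5AC and MUC5B 2 of 4 were tested, TOLLIP at -0.07 and TOLLIP-AS1 at 0.09, and neither passed. Around MUC1 14 of 16 were tested, from -0.11 to 0.29, and 0 passed.

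The genes whose levels ran most nearly parallel to B3GNT3 over the 6 libraries, by Pearson's r of log2 CPM, were CRAT (0.999), SLCO3A1 (0.997), PHPT1 (0.995), TTC23 (0.995) and C1R (0.995). These values use the same 6 libraries and take in the difference between the groups that chose B3GNT3, and 158 tested genes had an r above 0.95. Among the members r was 0.90 for MUC5AC, 0.83 for MUC5B and 0.80 for MUC1, near 0 for GCNT1 (0.14), 0.26 for C1GALT1, and negative for C1GALT1C1 (-0.45), GCNT3 (-0.81) and ST3GAL1 (-0.82).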

How the data were processed

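Gene counts of 6 libraries (3 per guide, grouped by the sample titles) were deposited by the authors as whole-number counts from htseq-count, 1 table per library. The submitters' processing notes name hg38, Trim Galore, FastQC, Bowtie2 2.3.3.1, SAMtools, Picard and HTSeq. The annotation and strand setting are not given in the sources used here. Reads outside genes and ambiguous reads stayed out of library sizes. They came to 19.7% to 21.1% and 2.61% to 2.75% of the counted reads.

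The main test was edgeR 4.0.16 (R 4.3.3), TMM scaling, quasi-likelihood test, no covariate, a minimum of 10 counts in 3 or more libraries per gene, and Benjamini-Hochberg adjustment over all 13356 tested genes. DESeq2 1.42.0 served for alternatives. Tested on simulated counts of 13356 genes, edgeR recovered 100 of 100 genes changed by 1.5 and 100 of 100 changed by 2 on the log2 scale. These changes were planted only in genes above a minimum CPM, and the simulated counts held no replicate effect. Recovery of smaller changes, such as those of B3GNT3, MUC5AC and MUC5B, and of changes in low genes was not tested. Replicate numbers in the labels were taken to pair the libraries: deviations of same-numbered libraries from their group means correlated at 0.272, 0.285 and 0.294.

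GENCODE 44 gave positions and lengths for 24531 of 26485 symbols. RefSeq gave promoters, with GRCh38 for the sites and the study's guide sequence. The members and lists were chosen with earlier results of these data known. Named were the members, SFTPB, NKX2-1, listed genes past a cut-off, the 2 most abundant per list and the 5 most like B3GNT3. MUC2, B3GNT5, B3GNT6, SPDEF, FOXA1, the neighbours and the genes at 0 were added after their values were seen, as were the searches for guide matches and neighbours.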

Additional observations from a re-analysis of the deposited data

How the results depend on the processing

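Beside the 96 genes called in the main test, the number called was 20 by DESeq2's test against a 2-fold change, 27 by edgeR's test against the same fold (glmTreat), 63 when 10 counts were required in every library, 359 by the adjusted p alone, and 65 to 94 with 1 library left out. The 2 called members became 0 in both tests against a 2-fold change, and 2 to 3 with 1 library left out, where MUC5B was added without control replicate 1 (-1.13). B3GNT3 stayed at -1.12 in these 2-fold tests, which differ only in what is tested, and ranged from -1.23 to -1.05 with 1 library left out. SFTPB ranged from -6.12 to -5.85. Of the 4 called pathway genes DESeq2 kept 2 (CREB3L1 and GALNT6), its 2-fold test and glmTreat kept 1 (GALNT6), and with 1 library left out 1 to 4 were called, of which 1 to 3 were among these 4. ST6GALNAC3 was added without control replicate 1, and GALNT6 dropped below the count filter without a control library. FCGBP had an adjusted p of 0.281 by DESeq2. Over the single libraries left out, log2 fold changes near 0 changed sign for GCNT1 (-0.24 to 0.01), CD164 (-0.01 to 0.09), GALNT1 (-0.02 to 0.03), B4GAT1 (-0.06 to 0.02), B4GALT1 (-0.03 to 0.04), GCNT2 (-0.08 to 0.01), ST6GAL1 (-0.11 to 0.05), CMAS (-0.07 to 0.01) and SLC35A2 (-0.02 to 0.07). Over the longest transcript in place of all exons, levels moved to 42.2 TPM for B3GNT3, 162 TPM for C1GALT1C1 and 0.0296 TPM for MUC16, beyond 1 SD of the replicates, and to 2.9 TPM for MUC5AC and 11.4 TPM for MUC5B, within it, with the order kept. The replicate block (B3GNT3 at -1.11) changed no call by both cut-offs among the members and pathway genes. Its other effects are given above, and its p-values rest on the trend of the dispersions alone. Of 542 values of single genes under all alternatives, judged by both cut-offs together, 503 kept their direction and call status, 19 lost the call, 6 gained it and 14 changed sign. Values can cross the adjusted p alone within the first of these. Counts limit the low genes most: MUC5AC rests on 34 to 150 counts per library.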
